A study of Cavia porcellus with 12 samples.

Results

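Iron handling genes were taken as 10 symbols set by name: *HAMP*, *HJV*, *HFE*, *TFR2*, *BMP6*, *TFRC*, *SLC11A2*, *SLC40A1*, *FTH1* and *FTL*. Of these, 9 were among the 11896 human orthologue symbols of the deposited table, and all 9 are described. *BMP6* was not a row of that table and was not analysed here. Liver RNA came from 6 controls on chow and 6 guinea pigs with NASH on a high-fat diet, all female Dunkin Hartley animals from a single breeder, 10 weeks old on arrival and 25 weeks on diet. The animals with NASH had been selected for bridging fibrosis and the controls drawn at random from animals without NASH or fibrosis, so diet and disease cannot be told apart. Blood remained in the livers, which had not been perfused.

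The liver sets how much iron enters the blood. Its hepatocytes secrete hepcidin, the peptide encoded by *HAMP*, which binds the iron exporter ferroportin (*SLC40A1*) and removes it from the cell surface. Hepatocytes read body iron through the BMP co-receptor haemojuvelin (*HJV*), the membrane protein HFE and transferrin receptor 2 (*TFR2*), while transferrin receptor 1 (*TFRC*) and DMT1 (*SLC11A2*) bring iron into cells and the ferritin heavy (*FTH1*) and light (*FTL*) chains store it. Chronic liver disease is known for disturbed hepcidin levels and for iron deposits in the tissue.

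Values are CPM, a gene's share of its library's counts, scaled with the TMM factors of edgeR, which correct for differences in library composition. The libraries held 16980274 to 33091460 counts, and 3 counts, the limit that a count of 0 allows, stood for 0.0765 to 0.214 CPM, which covers counting error only. TMM factors ranged over 0.804 to 0.875 among controls, and over 1.12 to 1.24 among the animals with NASH. With library size alone the median change over all genes moved from 0.00 to 0.48 on the log2 scale, so calls on small changes depend on the scaling. All 10 hepatocyte marker genes of the list used here were in the table, with a summed level of 95228 to 117819 CPM in controls and 38301 to 56712 CPM in NASH. In NASH 9 of them were lower, and the median of their log2 fold changes was −0.91, against 6 lower, 1 higher and a median of −0.44 with library size alone. All 5 cholangiocyte markers found were higher under both scalings (median log2 fold change 3.09 with TMM factors), with a summed level of 73.2 to 115 CPM in controls and 302 to 539 CPM in NASH. Of 8 stellate cell markers, 6 were higher and 1 lower (median 1.47; 6 and 0 with library size alone), and their sum was 567 to 698 CPM in controls and 1269 to 2523 CPM in NASH. The part of these cell types in the values of the genes below was not tested. In bulk liver, fewer cells of a type and less RNA per cell cannot be told apart.

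By edgeR's quasi-likelihood test with Benjamini-Hochberg adjustment over all genes, 8 of the 9 iron handling genes were differentially expressed. Of all 11896 genes, 53.9% were. *HAMP*, *HJV*, *TFR2*, *HFE*, *SLC11A2* and *FTL* were lower in NASH (6 of 9, against 26.0% of all genes), and *SLC40A1* and *FTH1* were higher (2 of 9, against 27.9%). With library size alone, *HFE*, *SLC11A2* and *FTL* turned positive, and 4 of the 9 genes were higher and 2 lower, against 63.9% and 7.66% of all genes. The median log2 fold change of the 9 genes was −0.30. Only *HAMP* and *HJV* were both called and changed by 1 or more on the log2 scale, as were 18.1% of all genes. In TMM-scaled CPM, every animal with NASH lay below every control in *HAMP*, *TFR2* and *HFE*. In no member did every animal with NASH lie above. Of all genes, 33.7% did not overlap on this scale, 15.3% being lower and 18.4% higher. With counts divided by library totals alone, *TFR2* and *HFE* overlapped between the groups.

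**Figure D1:**
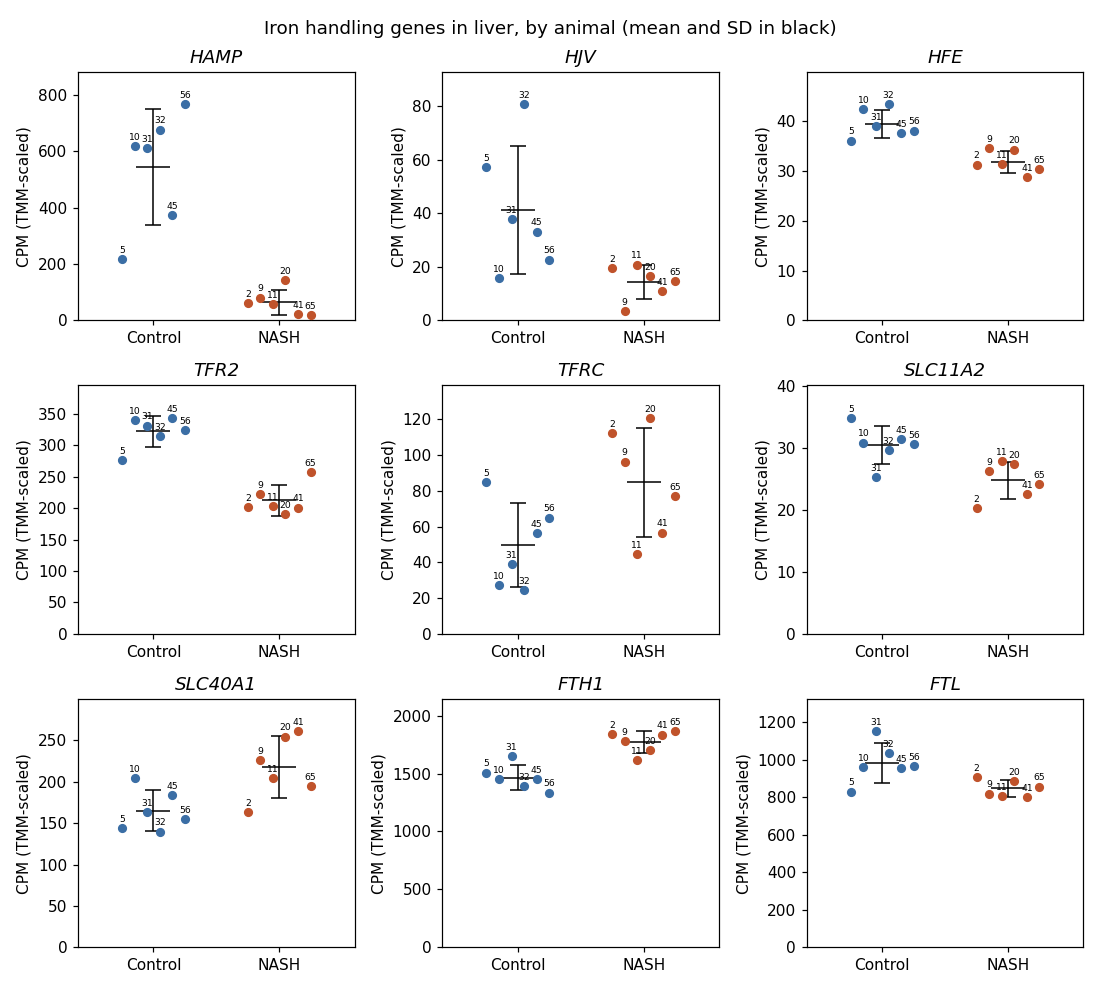
CPM (TMM-scaled, linear axis from 0) of the 9 iron handling genes in the 6 controls and the 6 guinea pigs with NASH, each point an animal with its number and the black bar the mean ± SD. *HAMP* fell from a mean of 544 CPM to 64.1 CPM without overlap, whereas the *TFRC* levels of the groups overlapped.

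*HAMP*, which encodes hepcidin, showed the largest change of the 9 genes. Controls ranged from 219 CPM (animal 5) to 766 CPM (animal 56) with a median of 615 CPM. Guinea pigs with NASH ranged from 20.3 CPM (animal 65) to 143 CPM (animal 20) with a median of 59.0 CPM. The highest animal with NASH thus stayed below the lowest control. The mean fell from 544 ± 206 to 64.1 ± 45 CPM (SD, n = 6 each), which is 8.49-fold lower (log2 fold change −3.09, SE 0.48, edgeR adjusted p = 0.000172). Scaled by library size alone, the log2 fold change was −2.61 (edgeR adjusted p = 0.000405). It lay 2.17 below the median of the hepatocyte markers. *HAMP* was the only member that also passed when tested against a log2 change of 1 in size, and with each animal left out in turn its log2 fold change stayed between −3.49 and −2.91.

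The animals with the least *HAMP*, 65 and 41 at 20.3 and 22.8 CPM, also held the most erythroid RNA, with a summed erythroid marker level of 3346 and 4634 CPM. The other animals with NASH lay between 440 and 736 CPM, and controls between 58.4 and 173 CPM. All 8 erythroid markers found, on 7 count rows, were higher in NASH by edgeR, and the median of their log2 fold changes was 4.14. None of them was without a count in every control, and *HBB*, *EPB42* and *AHSP* were not in the table. *ALAS2*, the enzyme of erythroid haem synthesis, averaged 1.08 ± 0.718 CPM in controls against 23.9 ± 23.5 CPM in NASH (SD, n = 6 each). The part of erythroid cells in the *HAMP* values was not tested.

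*HJV*, the co-receptor through which BMP ligands raise hepcidin, had the next largest change. Its level in controls ran from 15.7 CPM (animal 10) over a median of 35.5 CPM to 80.8 CPM (animal 32), and in NASH from 3.45 CPM (animal 9) over a median of 15.7 CPM to 20.9 CPM (animal 11). The groups overlapped through control 10, which lay below animals 2, 11 and 20 with NASH. The log2 fold change was −1.53 (SE 0.44, adjusted p = 0.0111 from edgeR), and −1.04 with library size alone (adjusted p = 0.0487 from edgeR). Tested against a log2 change of 1 in size, it did not pass (adjusted p = 0.319 from edgeR).

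*TFR2*, which senses transferrin-bound iron in hepatocytes, moved less but with little spread between animals. The level was 276 to 344 CPM in controls (median 328 CPM) and 190 to 258 CPM in NASH (median 203 CPM), without overlap. The log2 fold change was −0.60 (SE 0.09, adjusted p = 7.3e-05 from edgeR), or 1.51-fold lower. Under library size alone it was −0.13 (adjusted p = 0.173 from edgeR), which is no longer a call.

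*HFE*, the protein whose loss causes hereditary haemochromatosis, ran from 36.1 to 43.4 CPM in controls (median 38.5 CPM) and from 28.8 to 34.7 CPM in NASH (median 31.4 CPM). The groups did not overlap, although the difference was small (log2 fold change −0.31, SE 0.07, adjusted p = 0.0022 from edgeR). The sign turned with library size alone, to 0.17 (adjusted p = 0.0768 from edgeR). Against the hepatocyte markers, the log2 fold changes of *TFR2* and *HFE* stood 0.31 and 0.60 above the median of that list, whereas *HJV* stood 0.62 below it.

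*TFRC*, the receptor that takes up transferrin-bound iron in most cells and in erythroid precursors above all, did not pass the threshold of edgeR. Controls lay between 24.7 CPM (animal 32) and 85.1 CPM (animal 5) with a median of 47.7 CPM, and NASH between 44.7 CPM (animal 11) and 121 CPM (animal 20) with a median of 86.7 CPM. The groups overlapped over most of their range. The log2 fold change was 0.77 (SE 0.33, adjusted p = 0.0648 from edgeR, unadjusted p = 0.0364). It passed with DESeq2 (adjusted p = 0.0334), which called 56.2% of all genes, with limma-voom (adjusted p = 0.0472 from limma), with library size alone (log2 fold change 1.26, adjusted p = 0.00446 from edgeR), without control 5 (0.99, adjusted p = 0.0214 from edgeR) and without animal 11 with NASH (0.90, adjusted p = 0.0339 from edgeR). Animals 41 and 65, with the most erythroid RNA, held 56.7 and 77.0 CPM of *TFRC*, and the part of erythroid cells in its values was not tested.

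*SLC11A2*, which encodes the transporter DMT1, spanned 25.2 to 34.9 CPM in controls (median 30.7 CPM) and 20.3 to 27.9 CPM in NASH (median 25.3 CPM). The groups overlapped through control 31, the lowest of its group. The log2 fold change was −0.30 (SE 0.10, adjusted p = 0.0185 from edgeR) with TMM factors and 0.18 (adjusted p = 0.0834 from edgeR) with library size alone, so that neither its sign nor its call held under both.

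*SLC40A1*, encoding ferroportin, the exporter that hepcidin removes, went up. Its level was 140 to 204 CPM in controls (median 160 CPM) and 163 to 261 CPM in NASH (median 215 CPM), with overlap. The log2 fold change was 0.40 (SE 0.13, adjusted p = 0.0188 from edgeR), or 1.32-fold higher, and 0.87 with library size alone (adjusted p = 6.28e-05 from edgeR). Macrophages are known to carry much ferroportin, and of the 7 macrophage markers found, 1 was higher (*CD68*) and 1 lower (*MARCO*) with TMM factors, and 4 were higher and 1 lower with library size alone. Their summed level was 369 to 773 CPM in controls and 582 to 828 CPM in NASH, none was without a count in every control, and *CD163*, *VSIG4* and *TIMD4* were not in the table. Their part in the *SLC40A1* values was not tested.

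**Figure D2:**
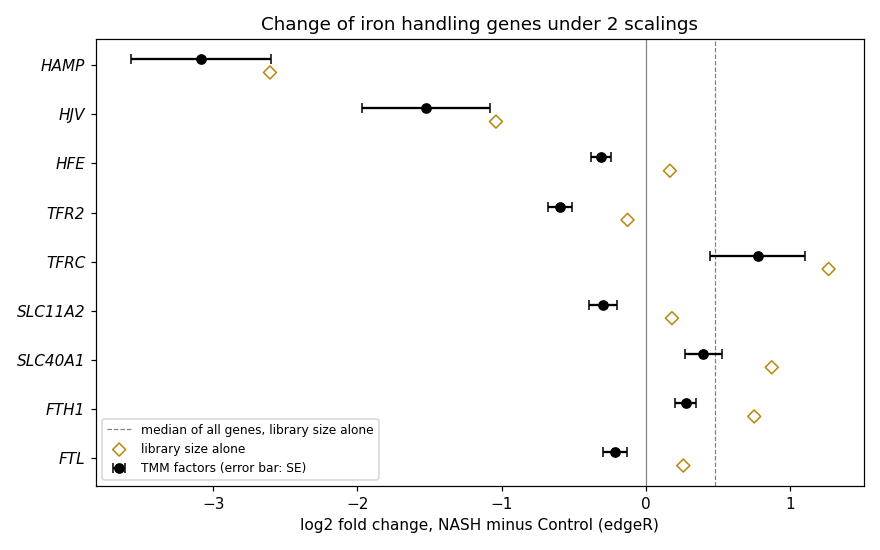
Log2 fold change of each member (NASH minus control) from edgeR with TMM factors (black, error bars SE) and with library size alone (open diamonds), with the median of all genes under the latter scaling as the dashed line at 0.48. *HAMP* and *HJV* lay well below 0 under both scalings, whereas *HFE*, *SLC11A2* and *FTL* changed sign.

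The ferritin chains moved in opposite directions by small amounts. *FTH1*, the heavy chain with the ferroxidase site, ranged from 1336 to 1654 CPM in controls (median 1452 CPM) and from 1613 to 1864 CPM in NASH (median 1807 CPM), where animal 11 alone lay below the highest control. Its log2 fold change was 0.27 (SE 0.07, adjusted p = 0.00672 from edgeR) and 0.75 with library size alone (adjusted p = 2.48e-06 from edgeR). *FTL*, the light chain that favours storage, ranged from 830 to 1151 CPM in controls (median 965 CPM) and from 803 to 909 CPM in NASH (median 838 CPM), and the groups overlapped through control 5. Its log2 fold change was −0.22 (SE 0.08, adjusted p = 0.0388 from edgeR), but with library size alone *FTL* was higher in NASH, at 0.26 (adjusted p = 0.0272 from edgeR). The call on *FTL* was lost in 8 of 12 fits that left out an animal, with an adjusted p of 0.0515 to 0.0871 from edgeR (without controls 10, 31, 32, 45 or 56, or without animals 9, 11 or 41 with NASH), and in these the log2 fold change stayed between −0.22 and −0.17.

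The light chain was read from more than 1 row. Besides *FTL*, the table holds *FTL.1* and *FTL.2*, further rows whose names are numbered repeats of the same human symbol. The count row of *FTL.1* also carries *BAX* and *DHDH*, and in the RefSeq table of another guinea pig assembly these genes lie beside *Ftl*. Reads of *FTL* and its neighbours therefore cannot be told apart on that row, and which row holds the light chain transcript is uncertain. Because multimapped reads were ignored by the authors, near-identical ferritin copies can also have lost reads.

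*FTL.1* had a high and a low level in both groups. In controls, animals 5, 32 and 56 lay at 3173, 3672 and 3496 CPM and animals 10, 31 and 45 at 1853, 2006 and 1925 CPM. In NASH, animals 2, 11 and 41 lay at 3058, 2755 and 3173 CPM and animals 9, 20 and 65 at 1645, 1781 and 1694 CPM. No animal lay between 2006 and 2755 CPM, and 3 of 6 animals of each group stood at either level. The difference between groups did not pass (edgeR, log2 fold change −0.19, SE 0.24, adjusted p = 0.522). The animals did not divide in this way on the *FTL* row. *FTL.2* was low, at 3.65 ± 0.911 CPM in controls and 2.62 ± 0.488 CPM in NASH (SD, n = 6 each), and was called lower with TMM factors (log2 fold change −0.48, SE 0.18, adjusted p = 0.0366 from edgeR) but not with library size alone (−0.01, adjusted p = 0.968 from edgeR).

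**Figure D3:**
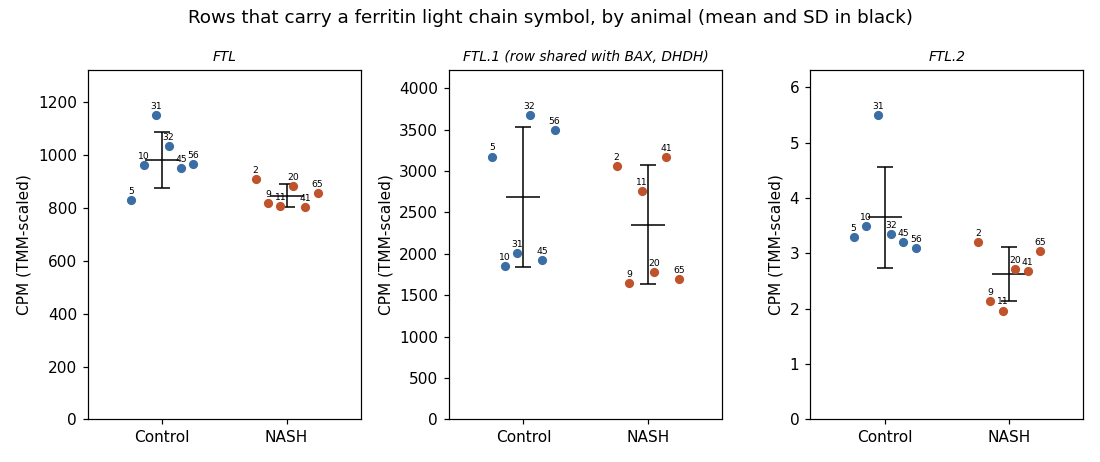
CPM (TMM-scaled, linear axis from 0) of the 3 rows with a ferritin light chain symbol, by animal, with the mean ± SD in black. *FTL.1*, whose row also carries *BAX* and *DHDH*, fell into a level from 1645 to 2006 CPM and a level from 2755 to 3672 CPM in controls and NASH alike.

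Ratios of counts within a library do not depend on the scaling between libraries. The log2 ratios of 4 pairs were compared with two-sided exact permutation tests of the difference in means, adjusted over the 4. The smallest p-value that 6 animals against 6 allow is 0.00216. Only the difference between groups is read from a ratio, because transcript lengths differ between genes.

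The ratio of *HAMP* to *SLC40A1*, the hormone and the exporter it removes, separated the groups most. On the log2 scale, controls lay between 0.61 and 2.30 and NASH between −3.52 and −0.83. The mean fell from 1.62 ± 0.69 to −2.06 ± 1.08 (SD, n = 6 each), a difference of −3.68 or 12.8-fold lower (exact permutation test, p = 0.00216, adjusted p = 0.00433). The difference was −3.40 between group medians (adjusted p = 0.026 by the exact permutation test) and −2.31 on the deposited rlog values, which are shrunken log2 values (adjusted p = 0.00433 by the same exact test). The ratio of *TFRC* to *TFR2* rose by 1.43 on the log2 scale, from −2.84 ± 0.78 to −1.41 ± 0.61 (SD, n = 6 each; exact permutation test, p = 0.00866, adjusted p = 0.0115), with overlap through control 5, whose ratio of −1.70 lay within the NASH range.

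The ratio of *FTL* to *FTH1* fell from −0.58 ± 0.15 to −1.07 ± 0.09 on the log2 scale (SD, n = 6 each), or 1.40-fold lower, without overlap (exact permutation test, p = 0.00216, adjusted p = 0.00433). With *FTL.1* in place of *FTL*, an alternative chosen after the data were seen, the difference was −0.46 against −0.49 but did not pass (exact permutation test, adjusted p = 0.167), and for both rows summed it was −0.47 (adjusted p = 0.0722 by the same exact test). The ratio of *TFRC* to *FTH1* differed by 0.55, less than the spread of the 6 controls (−5.02 ± 0.72 against −4.47 ± 0.55 in NASH, SD, n = 6 each; exact permutation test, p = 0.167).

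**Figure D4:**
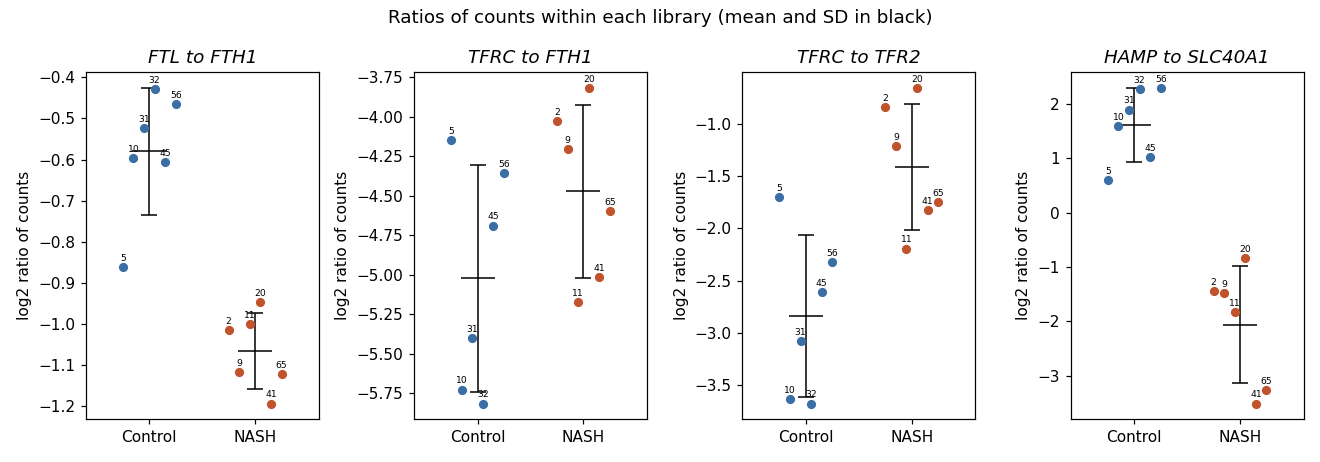
Log2 ratio of the counts of gene pairs within each library, by animal, with the mean ± SD in black. The ratios of *FTL* to *FTH1* and of *HAMP* to *SLC40A1* did not overlap between controls and NASH, whereas those of *TFRC* to *FTH1* and of *TFRC* to *TFR2* did.

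Genes around the members were read from 8 lists, with 63 of their 72 genes in the table. By edgeR, 14 were higher and 24 lower in NASH, where 27.9% and 26.0% of all genes were, and their median log2 fold change was −0.08. Under library size alone 30 were higher and 12 lower, where 63.9% and 7.66% of all genes were, and the median was 0.39.

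The list of hepcidin control by BMP and SMAD proteins was measured through 17 of its 18 genes, 3 of them higher and 5 lower with TMM factors, and 7 higher and 3 lower with library size alone. The 5 lower genes held the SMAD target genes and a protease. *ID1*, a gene that BMP signalling switches on, fell from 65.5 ± 13.0 to 23.2 ± 4.41 CPM (SD, n = 6 each; log2 fold change −1.50, SE 0.15, adjusted p = 4.38e-06 from edgeR). *ATOH8*, a transcription factor of the same pathway, fell from 9.76 ± 2.47 to 4.07 ± 0.672 CPM (SD, n = 6 each; log2 fold change −1.26, SE 0.18, adjusted p = 7.95e-05 from edgeR). Groups overlapped in neither gene, and with library size alone the log2 fold changes were −1.02 and −0.79.

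The inhibitory SMADs, which BMP signalling also raises, moved less. *SMAD7* changed by −0.54 on the log2 scale (SE 0.18, adjusted p = 0.0199 from edgeR) and *SMAD6* by −0.33 (SE 0.12, adjusted p = 0.033 from edgeR). Under library size alone these became −0.07 and 0.15, neither of them a call, and the call on *SMAD6* was also lost in 8 of 12 fits that left out an animal. *TMPRSS6*, the protease that cleaves haemojuvelin and so lowers hepcidin, fell from 104 ± 12.7 to 57.5 ± 5.07 CPM (SD, n = 6 each), without overlap (log2 fold change −0.86, SE 0.09, adjusted p = 6.28e-06 from edgeR). *BMP2*, an endothelial ligand of the pathway, was at 5.68 ± 2.57 CPM in controls and 5.64 ± 1.19 CPM in NASH (SD, n = 6 each; adjusted p = 0.985 from edgeR). The higher genes were the receptor *ACVR1*, the signal carrier *SMAD5* and *GDF15*, a stress-induced member of the TGF-beta family. *GDF15* had 0 to 15 counts in controls and 26 to 78 in NASH (adjusted p = 0.0102 from edgeR).

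Hepcidin is also raised by interleukin 6. *IL6* was not in the table, and this input was read from 8 of its 9 listed genes, of which 2 were higher (the kinases *JAK1* and *JAK2*) and 3 lower. The counts were 3 and 2 with library size alone. *IL6R*, the receptor of the cytokine, fell from 181 ± 29.3 to 58.1 ± 16.4 CPM (SD, n = 6 each), without overlap (log2 fold change −1.64, SE 0.18, adjusted p = 7.45e-06 from edgeR). *CRP*, an acute-phase gene, fell as well (log2 fold change −1.80, SE 0.30, adjusted p = 0.000268 from edgeR). *STAT3*, which carries the signal, was at −0.30 (SE 0.12, adjusted p = 0.0459 from edgeR) with TMM factors and at 0.17 with library size alone, and its call was lost in 7 of 12 fits that left out an animal. *SOCS3*, a target of STAT3, did not pass (log2 fold change 0.26, SE 0.21, adjusted p = 0.318 from edgeR), but was called higher with library size alone (0.73, adjusted p = 0.0078 from edgeR).

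The list of iron uptake and reduction was measured through 6 of its 9 genes, 3 higher and 3 lower (3 and 2 with library size alone). Both ZIP family importers of iron that is not bound to transferrin, *SLC39A14* and *SLC39A8*, were lower without overlap. *SLC39A14* fell from 427 ± 122 to 171 ± 34.2 CPM (SD, n = 6 each; log2 fold change −1.32, SE 0.18, adjusted p = 6.43e-05 from edgeR), and *SLC39A8* from 54.8 ± 6.16 to 25.4 ± 2.57 CPM (SD, n = 6 each; log2 fold change −1.11, SE 0.09, adjusted p = 8.84e-07 from edgeR). The third lower gene was the metalloreductase *STEAP4*, whose call was lost with library size alone (−0.37, adjusted p = 0.176 from edgeR). Of its relatives, *STEAP2* rose by 1.80 (SE 0.50, adjusted p = 0.00806 from edgeR), and *STEAP1*, on a row shared with *STEAP1B*, had 0 to 7 counts in controls and 21 to 142 in NASH (adjusted p = 0.000308 from edgeR). The fitted log2 fold change of *STEAP1* was 3.97, and 4.63 without control 5. The third higher gene was the reductase *CYBRD1*. *TF*, *STEAP3* and *SCARA5* were not in the table.

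Of the iron regulatory protein genes, *ACO1* was lower (log2 fold change −0.50, SE 0.08, adjusted p = 0.000156 from edgeR) and *IREB2* slightly higher (0.17, SE 0.06, adjusted p = 0.0266 from edgeR). These proteins bind ferritin and *TFRC* messages when iron is scarce. *FBXL5*, the ligase subunit that removes them, was at −0.36 (SE 0.09, adjusted p = 0.00364 from edgeR). Under library size alone *ACO1* was at −0.02 and *FBXL5* at 0.12, neither of them a call, and *IREB2* was at 0.64 (adjusted p = 3.58e-06 from edgeR). The call on *IREB2* was lost without control 10, control 31 or animal 20 with NASH (adjusted p = 0.0612, 0.0504 and 0.058 from edgeR). *NCOA4*, which delivers ferritin to lysosomes, was lower in NASH (log2 fold change −0.62, SE 0.11, adjusted p = 0.000341 from edgeR), and at −0.14 with library size alone (adjusted p = 0.243 from edgeR). It was 1 of 2 lower genes among the 3 found of the storage list, the other being the iron chaperone *PCBP2* (log2 fold change −0.46, and 0.01 with library size alone), and 0 were higher. Both calls were lost with library size alone, which left 0 lower and 1 higher.

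Among the ferroxidases that work with ferroportin, *HEPH* rose from 2.74 ± 1.25 to 7.07 ± 0.557 CPM (SD, n = 6 each), without overlap (log2 fold change 1.34, SE 0.25, adjusted p = 0.000653 from edgeR), whereas *CP*, the ferroxidase secreted by hepatocytes, was at 725 ± 277 CPM in controls and 804 ± 213 CPM in NASH (SD, n = 6 each; adjusted p = 0.656 from edgeR). *CP* was called higher with library size alone (log2 fold change 0.63, adjusted p = 0.0379 from edgeR).

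For haem and haemoglobin iron, 10 of 12 genes could be measured, 4 being higher and 2 lower (7 and 1 with library size alone). *HMOX1*, the enzyme that frees iron from haem, rose from 47.9 ± 11.2 to 85.2 ± 13.9 CPM (SD, n = 6 each), without overlap (log2 fold change 0.83, SE 0.17, adjusted p = 0.00107 from edgeR). *FLVCR2* rose by 1.47 (SE 0.20, adjusted p = 5.73e-05 from edgeR), and *HMOX2* and the haem transporter *SLC48A1* were the other higher genes. The lower genes were the biliverdin reductases *BLVRA* and *BLVRB*, the latter no longer called with library size alone (−0.27, adjusted p = 0.0579 from edgeR). Of the plasma scavengers, *HP*, on a row shared with *HPR*, did not pass (log2 fold change −0.70, SE 0.30, adjusted p = 0.0648 from edgeR) but did so with DESeq2 (adjusted p = 0.0324), with limma-voom (adjusted p = 0.0349 from limma) and without animal 65 with NASH (adjusted p = 0.00473 from edgeR), and *HPX* was at 0.05 (SE 0.20, adjusted p = 0.857 from edgeR), or at 0.51 and called with library size alone (adjusted p = 0.0264 from edgeR).

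In the list of mitochondrial iron use and haem synthesis, 7 of the 14 genes found were lower and 0 higher, and the median log2 fold change was −0.26. Under library size alone 4 were lower and 6 higher. *ALAS1*, the first enzyme of haem synthesis in the liver, fell from 475 ± 150 to 215 ± 39.1 CPM (SD, n = 6 each; log2 fold change −1.14, SE 0.20, adjusted p = 0.000353 from edgeR), and *CPOX*, a later enzyme of the same pathway, from 85.7 ± 37.1 to 24.0 ± 4.18 CPM (SD, n = 6 each; log2 fold change −1.84, SE 0.30, adjusted p = 0.000233 from edgeR). Neither gene overlapped between groups.

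**Figure D5:**
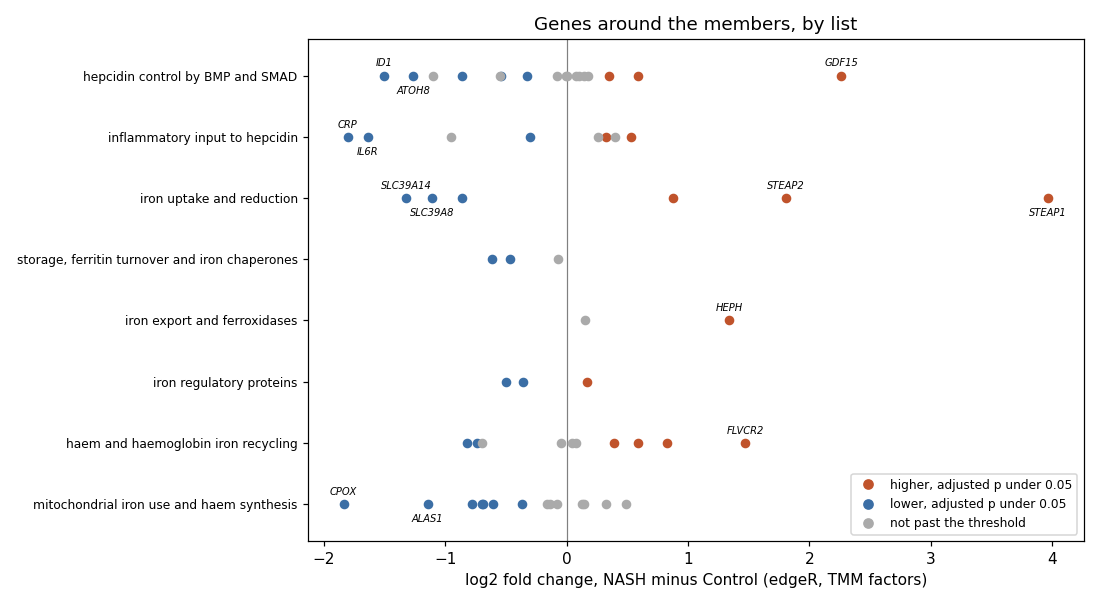
Log2 fold change (NASH minus control, edgeR with TMM factors) of the 63 genes around the members, each point a gene and each line a list, coloured by direction where the adjusted p was under 0.05 and grey otherwise. Names are given where the change was called and at least 1. *CPOX* stood lowest at −1.84 and *STEAP1* highest at 3.97, on few counts in controls.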

How the data were processed

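Liver RNA of 12 guinea pigs was sequenced as stranded single reads. Per the study's methods and the submitters' processing notes, the authors trimmed reads with Trimmomatic 0.38.0 and aligned them with HISAT2 2.1.0 to Cavpor3.0, ignoring multimapped reads. Transcripts were assembled, merged and quantified with StringTie 1.3.6, guided by the Cavpor3.0 gene annotation. The authors deposited counts per gene, and log2 values from the rlog transformation of DESeq2 under human symbols. The deposited counts carry no symbols, so the rlog transformation was repeated and its values matched: 11896 symbols fell on 11031 count rows (largest difference 8.35e-07), and 1515 symbols share a row. The authors kept rows with at least 200 counts in all, and the 9 members described were taken from the rows kept. The columns of other samples numbered 0.

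Counts were tested with edgeR 4.0.16 (quasi-likelihood, TMM, Benjamini-Hochberg over 11896 symbols, threshold 0.05) in R 4.3.3, with DESeq2 1.42.0 and limma 3.58.1 as alternatives, besides other scalings, filters and thresholds and each animal left out. Ratios were tested with scipy 1.17.1 and figures drawn with matplotlib 3.10.9. On simulated counts with 200 of 11031 rows changed, edgeR recovered 97% at 2-fold and 100% at 4-fold. The simulation gave all genes the same dispersion (spread between animals) of 0.05 and held no shift in library composition. In these data 53.9% of genes were called, so recovery was not checked for their spread, composition or share of changed genes. The members and lists were chosen with earlier results of these data known. Named by rule were every member, every gene of a pathway list called with a change of at least 1 on the log2 scale (or the largest of a list without one), a set of iron and hepcidin genes whatever their value, and for *HAMP* and *TFRC* the 3 genes most alike. Other genes in the text were chosen after their values were seen. Nothing in the labels says more of replication than that each sample is an animal, and p-values set the difference between groups against the variation between these animals.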

Additional observations from a re-analysis of the deposited data

How the results depend on the processing

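*HAMP* kept its direction and its call under every alternative run. With library size alone, *HFE* turned to 0.17, *SLC11A2* to 0.18, *FTL* to 0.26, *FBXL5* to 0.12, *SMAD6* to 0.15, *STAT3* to 0.17, *FANCL* to 0.38, *MAP3K7* to 0.20 and *BMP2* to 0.45 on the log2 scale, *TFR2* lost its call at −0.13 and *TFRC* gained one at 1.26, while 4 members were higher and 2 lower, and 30 pathway genes higher and 12 lower. With upper-quartile factors *SLC11A2* (−0.22) and *FTL* (−0.14) lost and *TFRC* (0.85) gained a call, and *BMP2* was at 0.062. *SMAD6* (−0.25) and *STAT3* (−0.23) also lost their calls with these factors. With all rows that had a count, *SLC11A2* (−0.21) and *FTL* (−0.13) lost theirs, and *BMP2* was at 0.080. So did *SMAD7* (−0.46), *SMAD6* (−0.24) and *STAT3* (−0.21) in that fit. *TFRC* was called at 0.77 by DESeq2 and at 0.84 by limma-voom, which put *BMP2* at 0.077. At a threshold of 0.01 the calls on *HJV* (−1.53), *SLC40A1* (0.40), *SLC11A2* (−0.30) and *FTL* (−0.22) were lost, leaving 1 member higher and 3 lower. Against a log2 fold change of 1 these and *HFE* (−0.31), *TFR2* (−0.60) and *FTH1* (0.27) were lost, leaving 0 members higher and 1 lower, and 2 pathway genes higher and 4 lower. With *FTL.1* for *FTL* the log2 fold change was −0.19 and the ratio to *FTH1* −0.46, and −0.47 with both rows summed. The cause was not tested.

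With each animal left out in turn, log2 fold changes ranged from −0.26 to −0.17 for *FTL*, from 0.63 to 0.99 for *TFRC*, from −0.14 to 0.25 for *BMP2*, from −0.10 to 0.15 for *HPX*, from −0.0027 (without control 31) to 0.31 for *CP* and from −0.17 to 0.0041 (without animal 11 with NASH) for *FANCL*. *BMP2* turned positive at 0.02 without control 10 or animal 9 with NASH, 0.25 without control 56, 0.03 without animal 2, 0.04 without animal 20 and 0.0016 without animal 41, and *HPX* negative at −0.02 without control 31, −0.01 without control 45, −0.04 without animal 41 and −0.10 without animal 65. Of 35 genes named around the members, 691 comparisons with an alternative kept direction and call, 50 lost a call, 8 gained one and 21 changed sign. No paired analysis was possible because the groups share no animal numbers. Depth limits *GDF15* and *STEAP1*, with at most 15 and 7 counts in a control.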

Other observations

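Likeness between animals was described for *HAMP* and *TFRC* as the Pearson correlation of rlog values over the 12 animals after each group's mean was subtracted. It carries no test, since the genes were picked as the highest of all symbols and share the libraries and their depth. For *HAMP* the genes most alike were *CCND1*, a cyclin of the G1 phase (r = 0.95), *CCDC136* (r = 0.90) and *ANXA1*, an annexin with roles in inflammation (r = 0.89). Within groups these moved with *HAMP*, but between groups they did not fall with it. The log2 fold change of *CCND1* was 1.11 (SE 0.25, adjusted p = 0.00237 from edgeR) and that of *ANXA1* was 3.33 (SE 0.25, adjusted p = 5.49e-07 from edgeR), both higher in NASH. *CCDC136* was at 1.20 (SE 0.60, adjusted p = 0.108 from edgeR). It was called higher with library size alone (1.67, adjusted p = 0.0262 from edgeR) and without animal 65 with NASH (1.40, adjusted p = 0.0485 from edgeR).

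For *TFRC* the genes most alike were the kinase gene *MAP3K7* (r = 0.85), *VMP1*, which acts in autophagy (r = 0.83), and *FANCL*, a ubiquitin ligase of DNA repair (r = 0.81). *VMP1* was higher in NASH (log2 fold change 0.85, SE 0.09, adjusted p = 8.01e-06 from edgeR). *MAP3K7* and *FANCL* did not pass, at −0.30 (SE 0.34, adjusted p = 0.487 from edgeR) and −0.09 (SE 0.17, adjusted p = 0.668 from edgeR). *ALB*, the albumin gene of hepatocytes, fell from 74883 ± 7812 to 30535 ± 5726 CPM (SD, n = 6 each; log2 fold change −1.29, SE 0.14).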
